A study of Mus musculus with 6 samples.

Results

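The genes of classical MHC class I presentation were followed across cultured mouse myeloid cells: H2-K1, H2-D1, B2m, Tap1, Tap2, Tapbp, Tapbpl, Nlrc5 and Erap1. They were picked by name, as the non-control array probes whose gene name equals 1 of these 9 symbols. Measured values played no part in matching probes to symbols, but the 9 genes were chosen with earlier results of these data known. The 9 genes had 17 of the 56605 probes, and after a filter on dim probes 16 of these remained among 33484, so that all 9 were among the 21862 genes tested. RNA was measured on 6 one-colour Agilent arrays, 2 in each of 3 groups, all from bone marrow of female C57BL/6J mice aged 6 to 8 weeks. The 6G- BM-MDSC were grown from marrow without its Ly-6G+ cells for 4 days in 40 ng/mL GM-CSF, the growth factor that drives myeloid cells from marrow. The MDSC (conv.), conventional myeloid-derived suppressor cells, came from whole marrow under the same 4 days and 40 ng/mL. GEO's own description of them mentions dendritic cells, but its wording does not settle whether these are part of the group. The DCs, dendritic cells, came from 8 days in 20 ng/mL GM-CSF. Culture time, dose and cell type therefore change together against DCs and cannot be told apart, and file names put both MDSC groups in array row 1 and DCs in row 2, which cannot be told apart either. The cultures were measured in bulk, so fewer cells expressing a gene and less of its RNA in each cell cannot be distinguished. The labels do not say whether the 2 arrays of a group came from separate cultures or animals, so p-values measure only the spread between these samples, which may be technical.

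MHC class I molecules show fragments of a cell's own proteins to CD8+ T cells. H2-K1 and H2-D1 encode the polymorphic heavy chains, B2m the light chain that every class I molecule needs, and peptides made by the proteasome are carried into the endoplasmic reticulum by the TAP transporter, a pair of Tap1 and Tap2, trimmed there by Erap1, and loaded with the help of tapasin (Tapbp) and the tapasin-like editor TAPBPR (Tapbpl). Nlrc5 encodes a transactivator that reaches class I promoters through proteins bound to a conserved module of DNA boxes, and interferon and NF-kappa B signalling also act on these promoters. Dendritic cells are known for strong antigen presentation.

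Promoter sequence was read from RefSeq (GRCm38.p6), as windows of 250 bases before to 50 bases after each gene's start, and was found for 6 of the 9 genes, in 7 windows, H2-K1 having a pair of starts. Tap2, Tapbpl and Nlrc5 had none. The stretches below show the boxes that the classical genes share. They run from 90 bases before the first TGACG on the gene's strand to 35 bases from its start, so that TGACG stands in the same place in each line. Capitals mark matches, on either strand, to GGG with, after any 2 bases, T, any 2 bases and CC (a kappa B pattern, some of whose matches overlap), AANNGAAA (an interferon regulatory factor core), TGACG (part of a cAMP response element) and CCAAT (the box bound by NF-Y). They lie at chr17:34000354-34000478 (minus strand) for H2-K1, chr17:35262903-35263027 (plus) for H2-D1, chr2:122147519-122147643 (plus) for B2m and chr17:34187380-34187504 (plus) for Tap1.
H2-K1: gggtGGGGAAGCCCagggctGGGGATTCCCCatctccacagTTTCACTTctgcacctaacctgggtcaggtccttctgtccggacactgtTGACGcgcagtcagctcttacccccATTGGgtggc
H2-D1: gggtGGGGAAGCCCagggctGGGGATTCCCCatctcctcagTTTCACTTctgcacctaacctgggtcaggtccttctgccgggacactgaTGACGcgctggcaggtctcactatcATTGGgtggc
B2m: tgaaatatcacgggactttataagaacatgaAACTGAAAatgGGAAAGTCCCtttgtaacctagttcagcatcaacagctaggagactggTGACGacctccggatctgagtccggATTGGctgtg
Tap1: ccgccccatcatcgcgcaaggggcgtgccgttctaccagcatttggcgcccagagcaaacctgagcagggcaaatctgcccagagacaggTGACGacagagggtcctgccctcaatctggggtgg

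In H2-K1, H2-D1 and B2m the windows held all 4 patterns, although the kappa B and interferon patterns stand in the opposite order in B2m. The H2-K1 and H2-D1 stretches had the same base at 114 of 125 positions (91.2%), while H2-K1 and B2m shared 49 of 125 (39.2%). Each pattern alone was common: the kappa B pattern was in 18.4% of all 32851 windows, AANNGAAA in 23.9%, TGACG in 20.8% and CCAAT in 37.4%. Tap1 had TGACG and CCAAT in its window, Tapbp CCAAT and Erap1 AANNGAAA. In H2-K1, H2-D1 and B2m alike, ATTGG, the CCAAT box on the other strand, followed TGACG after exactly 20 bases. That spacing was noticed after the sequences had been seen, and searched in the gene's own orientation it was found in 19 of 32851 windows (0.0578%), of 16 genes, among them H2-M3, a nonclassical class I gene, but not in the windows of Tap1, Tapbp or Erap1. A match is a description of letters and not of a bound site.

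The arrays were alike in brightness, with a 75th percentile of processed intensity between 560.2 and 633.3, no saturated spot, and 55.6% to 59.9% of probes well above background. All values below are log2 signal relative to that percentile of the same array, so a value of 1 is a signal 2-fold above it. The probes of the 9 genes were well above background on all 6 arrays, except the dimmer Tap2 probe (5 of 6) and 1 Erap1 probe that was on none and was left out. Of 13 neutrophil marker genes, 12 were called higher in 6G- BM-MDSC and 12 in MDSC (conv.) than in DCs (limma, adjusted p under 0.05). Of all genes, 15.0% and 13.4% were called higher in these comparisons and 17.8% and 15.8% lower. The summed linear level of the 13 genes was 1346 to 1587 in 6G- BM-MDSC, 1648 to 1695 in MDSC (conv.) and 472 to 491 in DCs. In DCs this sum came mostly from S100a9 and S100a8, at 8.23 and 8.19 and at 7.06 and 6.97 on the log2 scale. S100a9 was the marker not called, with differences from DCs of 0.13 in 6G- BM-MDSC and 0.36 in MDSC (conv.). S100a8 was higher by 0.85 and 0.87, and the other called markers by 3.11 to 6.34. All 13 dendritic cell markers but Xcr1 were above background in every group, and their sum was 711 to 766 in 6G- BM-MDSC, 721 to 777 in MDSC (conv.) and 1195 to 1214 in DCs. Relative to DCs, 6G- BM-MDSC had 9 of the 12 tested called lower and 2 higher (Clec9a and Flt3, by 1.59 and 0.50), and MDSC (conv.) had 10 lower and 1 higher (Clec9a, by 1.21). Sums over 8 macrophage markers were 109 to 113, 107 to 114 and 171 to 191 in the same order of groups, over 5 monocyte markers 361 to 408, 374 to 383 and 188 to 207, and over 5 B cell markers 3.37 to 3.92, 3.89 to 4.004 and 0.460 to 0.517. Over 9 T and NK cell markers the sums were 3.05 to 3.19, 3.11 to 3.34 and 2.94 to 3.87, and Ncr1, Klrb1c and Ifng were above background in no group. Of the 5 monocyte markers, 2 were called higher in 6G- BM-MDSC than in DCs (Ly6c2 and Cx3cr1, by 3.03 and 2.07) and 0 lower. In MDSC (conv.) 1 was called higher (Ly6c2, by 3.15) and 1 lower (Csf1r, by 0.48). The neutrophil, monocyte, macrophage, dendritic and B cell sums did not overlap between either MDSC group and DCs, while the T and NK cell sums did. Single T and NK cell markers still differed: of 6 tested, 2 were called higher (Cd3d and Gzmb) and 1 lower (Cd3g) in 6G- BM-MDSC than in DCs. In MDSC (conv.) the same 2 were called higher and 2 lower (Cd3g and Cd4). Gzmb was not above background in DCs. In each MDSC group 6 of the 8 macrophage markers were called lower and 0 higher, and 3 of the 5 B cell markers higher and 0 lower. The part of these cells in the differences below was not tested.

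In 6G- BM-MDSC, Tap2, Nlrc5, Tap1, H2-K1 and Tapbpl fell relative to DCs, by 1.96, 0.80, 0.50, 0.49 and 0.36 on the log2 scale. In MDSC (conv.) the same 5 genes and B2m fell relative to DCs, and 0 of the 9 genes rose in either group, where 15.0% and 13.4% of all genes were called higher. Counted over genes, 5 of 9 were called lower in 6G- BM-MDSC than in DCs (limma, adjusted p under 0.05) where 17.8% of all genes were called lower (32.8% called in either direction), and 6 of 9 were called lower in MDSC (conv.) where 15.8% were (29.2% in either direction). The median difference of the 9 genes was -0.36 for 6G- BM-MDSC over DCs and -0.41 for MDSC (conv.) over DCs, against -0.036 and -0.031 over all 21862 genes. Taken probe by probe, 7 of the 16 probes were lower in 6G- BM-MDSC than in DCs by the same test and 8 in MDSC (conv.), where 16.2% and 14.3% of all 33484 probes were, and 0 passed between both MDSC groups (background 0.00896%). The comparisons share the DC arrays, so they are not separate pieces of evidence. Leaving out any array also leaves less data to estimate the spread of every gene, so a call can be lost with its difference unchanged. Counts rested on few arrays: without replicate 2 of 6G- BM-MDSC the first count was 2, and without replicate 1 or replicate 2 of DCs it was 3. The second was 3 and 1 without replicate 1 and replicate 2 of MDSC (conv.), and 2 and 1 without replicate 1 and replicate 2 of DCs.

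**Figure D1:**
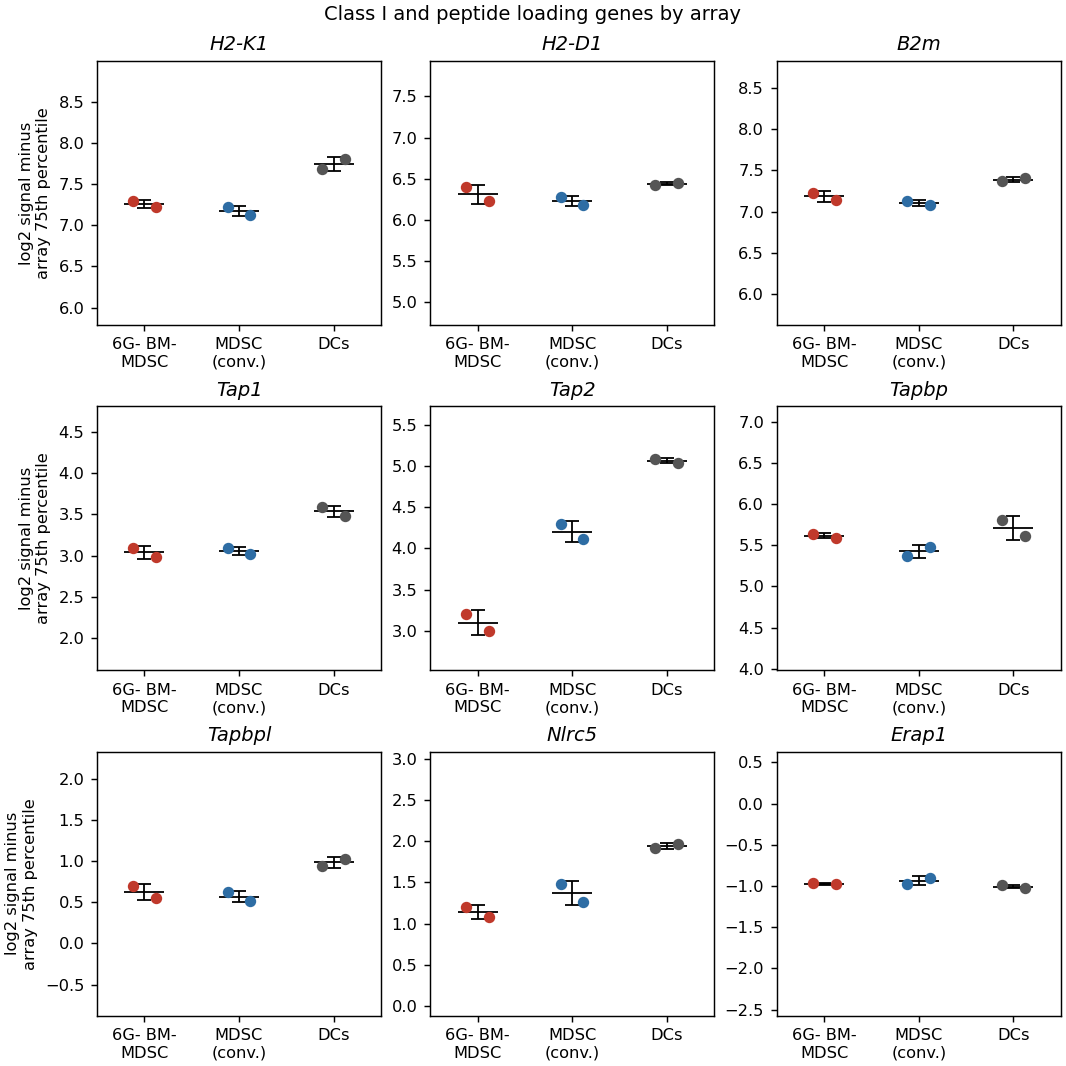
Log2 signal relative to the array's 75th percentile (vertical axes, each spanning the same 3.2 units) of each of the 9 genes, for its brightest probe. Points are single arrays of 6G- BM-MDSC, MDSC (conv.) and DCs, and the bar and whiskers are the mean and SD of 2 arrays. Tap2 fell into 3 levels, near 3.1, 4.2 and 5.1, while Erap1 stayed between -1.02 and -0.90 in all groups.

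H2-K1, the heavy chain of the classical molecule K, had a log2 signal of 7.29 and 7.22 in 6G- BM-MDSC, 7.22 and 7.13 in MDSC (conv.) and 7.69 and 7.80 in DCs, at chr17:34133055-34133114 (minus strand; probe positions are on mm9, as in the files). Both DC arrays lay above all 4 MDSC arrays. H2-K1 fell in 6G- BM-MDSC relative to DCs by 0.49 ± 0.08 on the log2 scale (SE, n = 2 each; adjusted p = 0.014), which is 1.40-fold lower. In MDSC (conv.) it fell by 0.57 ± 0.08 (adjusted p = 0.0097), or 1.49-fold. The calls were lost without DCs replicate 2 (adjusted p = 0.067 for 6G- BM-MDSC and 0.051 for MDSC (conv.)), without 6G- BM-MDSC replicate 2 (0.067) and without MDSC (conv.) replicate 2 (0.058).

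A further H2-K1 probe at chr17:34133984-34134043 gave the same picture, at 5.36 and 5.28 in 6G- BM-MDSC, 5.23 and 5.21 in MDSC (conv.) and 5.81 and 5.86 in DCs. Relative to DCs its signal fell by 0.52 in 6G- BM-MDSC and by 0.62 in MDSC (conv.) (adjusted p = 0.0088 and 0.0058, over all probes). Its sequence is given because class I heavy chains are close relatives. Capitals mark a run of 29 bases, from base 15 to base 43, that is also found in probes of H2-L and H2-T23. Whether the probe also binds RNA of other class I genes was not tested, so its signal may not come from H2-K1 alone.
H2-K1 probe: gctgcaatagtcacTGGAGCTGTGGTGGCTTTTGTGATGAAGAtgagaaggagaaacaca

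H2-D1, the heavy chain of molecule D, varied little. It had 6.40 and 6.23 in 6G- BM-MDSC, 6.27 and 6.19 in MDSC (conv.) and 6.43 and 6.46 in DCs. DCs were again the highest, but their mean lay above that of 6G- BM-MDSC by less than the gap between the 6G- BM-MDSC arrays. The difference from DCs was -0.13 in 6G- BM-MDSC (95% interval -0.36 to 0.10, adjusted p = 0.31) and -0.21 in MDSC (conv.) (-0.44 to 0.019, adjusted p = 0.14), neither past the test.

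B2m, the light chain, reached 7.23 and 7.14 in 6G- BM-MDSC, 7.13 and 7.08 in MDSC (conv.) and 7.37 and 7.41 in DCs at its brighter probe (chr2:121978401-121978460). The 2 DC arrays were above the other 4, by little. B2m fell in MDSC (conv.) relative to DCs by 0.28 ± 0.08 (SE, n = 2 each; adjusted p = 0.048), while for 6G- BM-MDSC the difference of -0.20 did not pass (adjusted p = 0.098). With quantile normalization the MDSC (conv.) difference from DCs was -0.14 (limma, adjusted p = 0.20), and 8 of 19 alternatives kept the call. The call in MDSC (conv.) was lost without any 1 of the 6 arrays: the adjusted p was 0.069 without either 6G- BM-MDSC array, 0.11 and 0.17 without replicates 1 and 2 of MDSC (conv.), and 0.13 and 0.17 without replicates 1 and 2 of DCs. The dimmer probe, at chr2:121974599-121974658, had 0.20 and 0.01 in 6G- BM-MDSC, 0.10 and -0.16 in MDSC (conv.) and 0.72 and 0.71 in DCs. Its signal fell by 0.61 in 6G- BM-MDSC and by 0.75 in MDSC (conv.) relative to DCs (limma over all probes, adjusted p = 0.021 and 0.013), so the probes of B2m differ in the size of the drop. The array annotation gives the dimmer probe another transcript record than the brighter one. Whether both measure the same RNA was not tested.

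**Figure D2:**
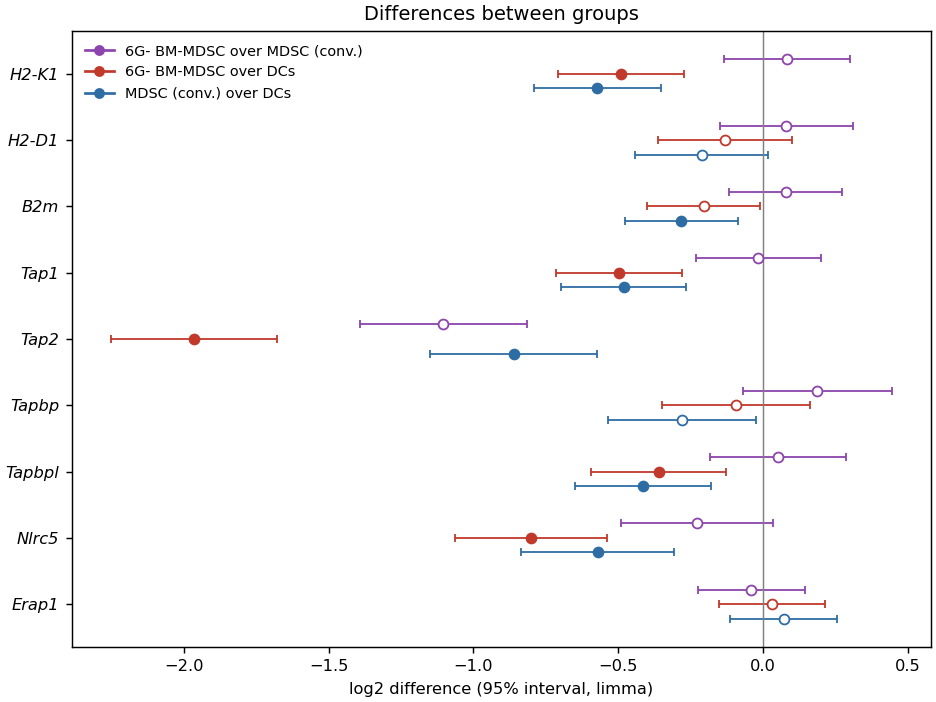
Log2 difference between groups (horizontal axis) with its 95% interval from limma for the 9 genes. Filled points passed an adjusted p of 0.05 and open points did not: 0 of 9 for 6G- BM-MDSC over MDSC (conv.), 5 of 9 for 6G- BM-MDSC over DCs and 6 of 9 for MDSC (conv.) over DCs.

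The transporter genes behaved differently from each other. Tap1 had 3.09 and 2.98 in 6G- BM-MDSC, 3.09 and 3.02 in MDSC (conv.) and 3.58 and 3.49 in DCs (chr17:34334022-34334081). The MDSC groups overlapped and both DC arrays stood above them. Tap1 fell by 0.50 ± 0.08 in 6G- BM-MDSC (SE, n = 2 each; adjusted p = 0.013) and by 0.48 ± 0.08 in MDSC (conv.) (adjusted p = 0.015) relative to DCs, 1.41-fold and 1.40-fold lower. The call in 6G- BM-MDSC was lost without 6G- BM-MDSC replicate 2 (adjusted p = 0.063) and without DCs replicate 1 (0.065). In MDSC (conv.) it was lost without replicate 1 or 2 of MDSC (conv.) (0.054 and 0.080) and without replicate 1 or 2 of DCs (0.073 and 0.0504). A dimmer Tap1 probe (chr17:34330854-34330913) had -0.14 and -0.27 in 6G- BM-MDSC, -0.35 and -0.51 in MDSC (conv.) and 0.14 and -0.04 in DCs, and passed for MDSC (conv.) alone (difference -0.48, adjusted p = 0.034, against -0.25 and 0.15 for 6G- BM-MDSC).

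Tap2 had 3.21 and 2.99 in 6G- BM-MDSC, 4.29 and 4.11 in MDSC (conv.) and 5.09 and 5.04 in DCs (chr17:34353116-34353175). The 3 groups lay apart, with gaps between them several times the gap between arrays of 1 group. Relative to DCs, Tap2 fell by 1.96 ± 0.11 in 6G- BM-MDSC (SE, n = 2 each; adjusted p = 0.00070), a 3.90-fold lower signal, and by 0.86 ± 0.11 in MDSC (conv.) (adjusted p = 0.0067), 1.82-fold lower. Both calls were kept without any 1 array, with an adjusted p of at most 0.0065 and 0.042. Of the 21862 genes, 235 had a lower difference than Tap2 between 6G- BM-MDSC and DCs.

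Between both MDSC groups the Tap2 difference was -1.10 ± 0.11 (SE, n = 2 each), a ratio of 2.15, with an unadjusted p of 1.9e-04 that did not pass after adjustment over all genes (adjusted p = 0.18). Among all genes 145 had a lower difference in this comparison and 21 a smaller p. The adjusted p lay below 0.05 with another background correction (0.045) and with a prior variance that depends on intensity (0.024), and over 19 alternatives it ranged from 0.016 (an unadjusted test) to 0.57.

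The other Tap2 probe, at chr17:34341478-34341537, was dim: -4.98 and -4.90 in 6G- BM-MDSC, -4.54 and -4.25 in MDSC (conv.) and -4.24 and -4.68 in DCs, where DCs replicate 2 was not well above background. On this probe MDSC (conv.) overlapped DCs, and 6G- BM-MDSC lay below both. No difference passed: -0.48 for 6G- BM-MDSC over DCs (adjusted p = 0.10), 0.07 for MDSC (conv.) over DCs (0.81) and -0.55 for 6G- BM-MDSC over MDSC (conv.) (0.42). Taken as the mean of both probes, the Tap2 difference from DCs was -1.22 for 6G- BM-MDSC and -0.40 for MDSC (conv.), so its size depends on the probe.

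**Figure D3:**
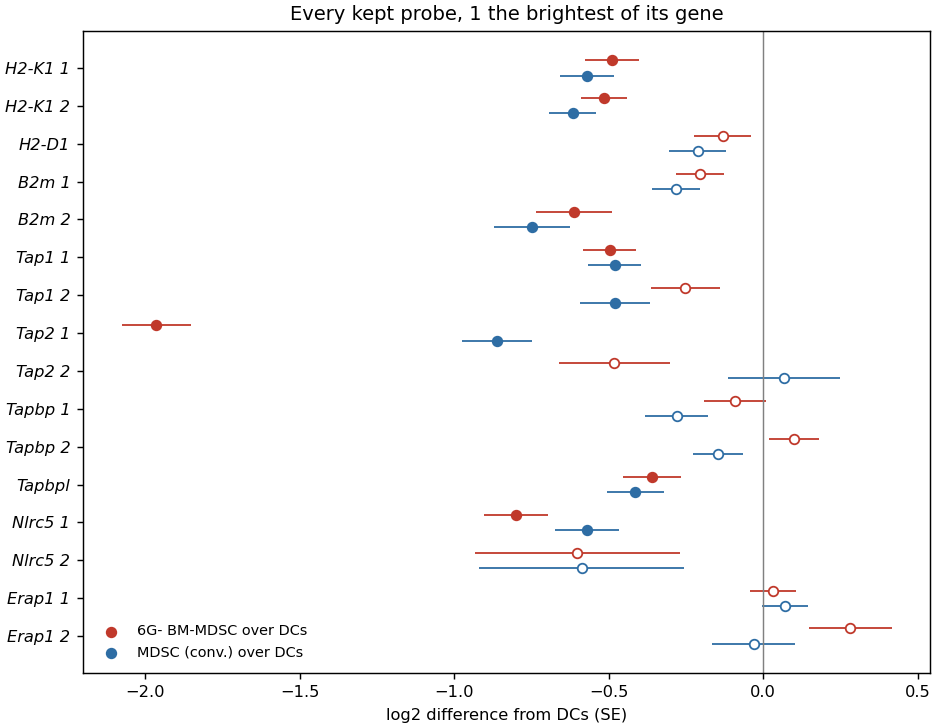
Log2 difference from DCs (horizontal axis, whiskers are SE) for each of the 16 kept probes, numbered by brightness within a gene, in 6G- BM-MDSC and MDSC (conv.). Filled points passed an adjusted p of 0.05 over 33484 probes, 7 for 6G- BM-MDSC and 8 for MDSC (conv.), all below 0, and the probes of Tap2 differ more than those of H2-K1.

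In the peptide loading step, Tapbp passed in neither comparison with DCs and Tapbpl in both, and the difference between the 2 genes was not tested. Tapbp, which bridges TAP and empty class I molecules, had 5.64 and 5.59 in 6G- BM-MDSC, 5.37 and 5.48 in MDSC (conv.) and 5.81 and 5.61 in DCs. The MDSC (conv.) arrays were the lowest, and 6G- BM-MDSC overlapped DCs. No Tapbp difference passed the test: -0.09 for 6G- BM-MDSC over DCs (95% interval -0.35 to 0.16, adjusted p = 0.51), which turned to 0.0077 without DCs replicate 1 and to 0.0041 as the mean of both probes, and -0.28 for MDSC (conv.) over DCs (-0.54 to -0.025, adjusted p = 0.095). The dimmer Tapbp probe had 0.24 and 0.15 in 6G- BM-MDSC, -0.04 and -0.06 in MDSC (conv.) and 0.14 and 0.05 in DCs, with MDSC (conv.) again lowest and no difference past the test.

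Tapbpl, whose product edits peptides outside the loading complex, had 0.69 and 0.55 in 6G- BM-MDSC, 0.62 and 0.52 in MDSC (conv.) and 0.94 and 1.03 in DCs (chr6:125174614-125174673, minus strand). DC arrays were above the other 4, among which the groups overlapped. It fell by 0.36 ± 0.09 in 6G- BM-MDSC (SE, n = 2 each; adjusted p = 0.038) and by 0.41 ± 0.09 in MDSC (conv.) (adjusted p = 0.029) relative to DCs. The call in 6G- BM-MDSC was lost without any 1 array, with an adjusted p of 0.060 and 0.14 without replicates 1 and 2 of 6G- BM-MDSC, 0.062 without either MDSC (conv.) array, and 0.096 and 0.15 without replicates 1 and 2 of DCs. That in MDSC (conv.) was lost without replicate 1 or 2 of MDSC (conv.) (0.072 and 0.12) and without replicate 1 or 2 of DCs (0.079 and 0.12). With the replicate number as a block the call in 6G- BM-MDSC was lost too (adjusted p = 0.056).

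Erap1, the aminopeptidase of the endoplasmic reticulum (also called ERAAP in mice), was level. It had -0.97 and -0.98 in 6G- BM-MDSC, -0.97 and -0.90 in MDSC (conv.) and -0.99 and -1.02 in DCs (chr13:74828969-74829028). Although both DC arrays were the lowest, the difference from DCs was 0.03 in 6G- BM-MDSC (95% interval -0.15 to 0.21, adjusted p = 0.76) and 0.07 in MDSC (conv.) (-0.11 to 0.25, adjusted p = 0.49). A dimmer probe had -3.61 and -3.57 in 6G- BM-MDSC, -3.85 and -3.95 in MDSC (conv.) and -4.05 and -3.70 in DCs, with no difference past the test.

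Nlrc5, the class I transactivator, had 1.20 and 1.08 in 6G- BM-MDSC, 1.47 and 1.27 in MDSC (conv.) and 1.92 and 1.96 in DCs (chr8:97051105-97051164). The order of the 3 groups was that of Tap2, without overlap. Nlrc5 fell by 0.80 ± 0.10 in 6G- BM-MDSC relative to DCs (SE, n = 2 each; adjusted p = 0.0060), 1.74-fold, and this call was kept without any 1 array. In MDSC (conv.) it fell by 0.57 ± 0.10 (adjusted p = 0.016), 1.49-fold, a call lost without MDSC (conv.) replicate 2 (adjusted p = 0.067), without DCs replicate 1 (0.064) or replicate 2 (0.076), and as the mean of both probes (0.076). The dim probe had -3.94 and -3.58 in 6G- BM-MDSC, -3.67 and -3.83 in MDSC (conv.) and -3.64 and -2.68 in DCs, where the DC arrays were far apart and no difference passed (-0.60 and -0.59 against DCs, adjusted p = 0.22 and 0.24). The 6G- BM-MDSC and MDSC (conv.) levels differed by -0.23 (95% interval -0.49 to 0.034, adjusted p = 0.50).

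Removing Ly-6G+ cells from the marrow was set against whole marrow in the comparison of both MDSC groups. There, 0 of 9 genes passed (limma, adjusted p under 0.05), against 0.0137% of all genes (3 genes). At an unadjusted p under 0.05 there was 1, Tap2, where 10.8% of all genes were. Apart from Tap2, Nlrc5 and Tapbp (0.19, 95% interval -0.067 to 0.44, adjusted p = 0.56), the differences lay between -0.04 for Erap1 and 0.08 for H2-K1. Their 95% intervals reached from -0.23 (Tap1) to 0.31 (H2-D1). The arrays of the 2 groups did not overlap for 2 genes lower in 6G- BM-MDSC (Tap2 and Nlrc5, background 21.8%) and 3 higher (H2-K1, B2m and Tapbp, background 22.4%). Against DCs, the arrays of 6G- BM-MDSC lay below without overlap for 7 genes (background 39.2%) and those of MDSC (conv.) for 8 (38.0%), and Erap1 lay above in both (33.6% and 33.1%). With 2 arrays a group an exact permutation test cannot go below p = 0.333.

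Of 62 other genes of the pathway, in 5 lists, 61 were tested, all but Psme2. Relative to DCs, 18 were called in 6G- BM-MDSC, 5 of them higher and 13 lower, and MDSC (conv.) gave the same counts, with a median difference of -0.11 and -0.055. Of all genes 32.8% and 29.2% were called in either direction, so the share of pathway genes called either way was near the background. By direction, 17.8% and 15.8% of all genes were called lower and 15.0% and 13.4% higher. Between both MDSC groups none was called by limma, and 3 of the 61 had an unadjusted p under 0.05, against 10.8% of all genes: Pdia3 (-0.54, adjusted p = 0.25), Hspa5 and Irf1 (0.35, adjusted p = 0.29). These counts too changed when a single array was left out, which also leaves less data to estimate the spread of every gene. How much of the change comes from the particular array was not tested. The 18 genes called in 6G- BM-MDSC became 8 without 6G- BM-MDSC replicate 2, 6 without DCs replicate 1 and 7 without DCs replicate 2. The 18 called in MDSC (conv.) became 10 and 6 without replicates 1 and 2 of MDSC (conv.), and 8 without either DC array.

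**Figure D4:**
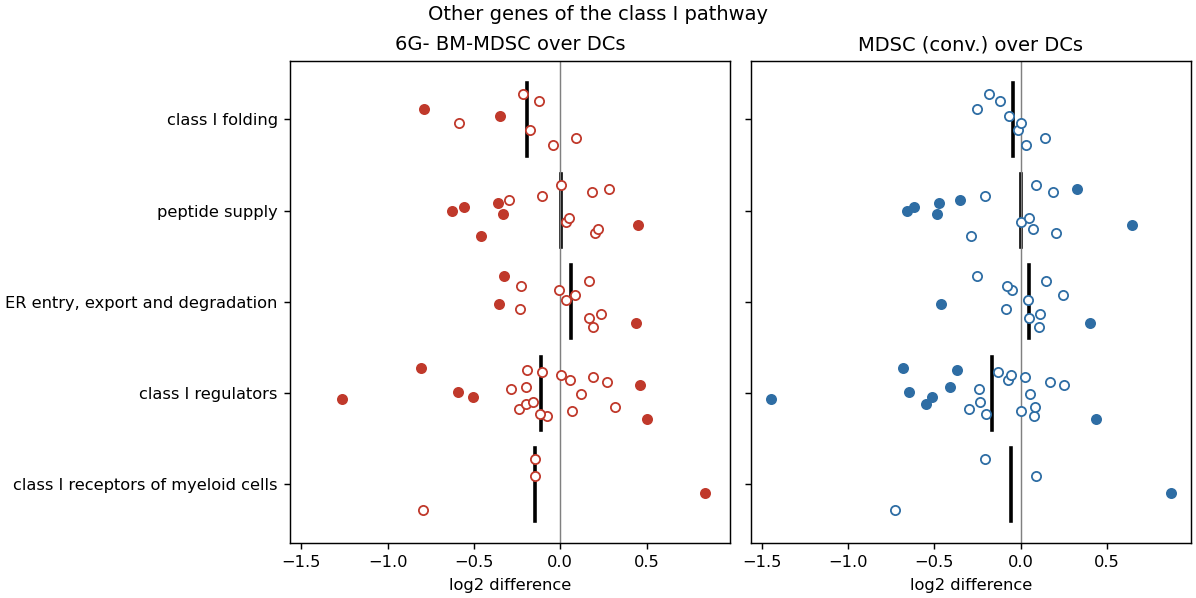
Log2 difference of 61 other pathway genes (points) in 5 lists, for 6G- BM-MDSC over DCs and MDSC (conv.) over DCs. Filled points passed an adjusted p of 0.05 and black bars are list medians: Irf8 lies farthest to the left in both comparisons, at -1.26 and -1.45.

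Peptides are supplied by the proteasome, whose inducible subunits replace the standard ones in immune cells. Of 15 peptide supply genes tested, 5 fell and 1 rose in 6G- BM-MDSC relative to DCs, and 5 fell and 2 rose in MDSC (conv.), where 17.8% and 15.8% of all genes were called lower and 15.0% and 13.4% higher. Psmb8, an inducible proteasome subunit, had 5.17 and 5.10 in 6G- BM-MDSC, 5.16 and 5.04 in MDSC (conv.) and 5.81 and 5.71 in DCs, and fell by 0.63 and 0.66 (adjusted p = 0.0075 and 0.0070). Psmb9, another, fell by 0.56 and 0.62 (adjusted p = 0.012 and 0.0099). In both, the MDSC groups overlapped and DCs were above. Psmb10, the third, fell by 0.49 in MDSC (conv.) (adjusted p = 0.012). Named after their values were seen, Psmb10 also fell in 6G- BM-MDSC, by 0.33 (adjusted p = 0.030), and Psme1, a subunit of the proteasome activator, fell by 0.36 and 0.48 (adjusted p = 0.037 and 0.019). Blmh, a cytosolic peptidase, fell by 0.46 in 6G- BM-MDSC (adjusted p = 0.019). Npepps, a cytosolic aminopeptidase, ran the other way and rose by 0.45 in 6G- BM-MDSC and 0.64 in MDSC (conv.) (adjusted p = 0.021 and 0.0083). The median of the list was near 0 in both comparisons, 0.0043 and 0.0030.

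Of 8 folding genes, 2 fell in 6G- BM-MDSC relative to DCs, near the background of 17.8%. Pdia3, the thiol oxidoreductase of the loading complex, had 3.41 and 3.28 in 6G- BM-MDSC, 3.90 and 3.87 in MDSC (conv.) and 4.21 and 4.07 in DCs, and fell by 0.79 in 6G- BM-MDSC (adjusted p = 0.0043). Hspa5, the chaperone BiP, fell by 0.35 (adjusted p = 0.049). In MDSC (conv.) none of the 8 was called (1 at an unadjusted p under 0.05), and the brightest, Ppia and Hsp90b1, differed from DCs by -0.12 and 0.0026. Among 12 genes of entry into, export from and degradation at the endoplasmic reticulum, Derl1, a degradation channel component, rose by 0.44 in 6G- BM-MDSC and 0.40 in MDSC (conv.) (adjusted p = 0.016 and 0.021), Sec61b, a translocon subunit, fell by 0.35 and 0.46 (0.034 and 0.018), and Vcp, the ATPase that extracts proteins, fell by 0.32 in 6G- BM-MDSC (0.028).

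Of 22 regulators of class I genes, 4 fell and 2 rose in 6G- BM-MDSC relative to DCs, and 7 fell and 1 rose in MDSC (conv.). Taken either way, these counts too were near the background of 32.8% and 29.2% of all genes. By direction, 17.8% and 15.8% of all genes were called lower and 15.0% and 13.4% higher. In MDSC (conv.) the share of regulators called lower was thus above its background, and the share called higher below it. Irf8, a factor that dendritic cells and monocytes need to develop, had 4.22 and 4.23 in 6G- BM-MDSC, 3.98 and 4.09 in MDSC (conv.) and 5.30 and 5.66 in DCs. Its difference from DCs was -1.26 in 6G- BM-MDSC and -1.45 in MDSC (conv.) (adjusted p = 0.0038 and 0.0027). Stat2, a subunit of the type I interferon factor ISGF3, fell by 0.80 and 0.68 (adjusted p = 0.00375 and 0.0063), and Jak2, a kinase of the interferon gamma and GM-CSF receptors, by 0.59 and 0.65 (0.012 and 0.011). Irf1, which binds the interferon response element of class I promoters, had 3.95 and 3.95 in 6G- BM-MDSC, 3.60 and 3.60 in MDSC (conv.) and 4.13 and 4.17 in DCs, and fell by 0.55 in MDSC (conv.) (adjusted p = 0.00595). In 6G- BM-MDSC its difference from DCs was -0.20 (adjusted p = 0.083). Atf1, a factor that binds cAMP response elements, rose by 0.50 in 6G- BM-MDSC (adjusted p = 0.024). Of 4 genes listed as receptors of class I on myeloid cells, Klra2 passed and the other 3 did not. Klra2, an inhibitory receptor of the Ly49 family, rose by 0.84 in 6G- BM-MDSC and 0.87 in MDSC (conv.) (limma, adjusted p = 0.00765 and 0.0074). Whether each listed gene's product binds class I was not examined.

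Tap2 lies in the MHC on chromosome 17 beside other presentation genes, and its neighbours were looked up after its values had been seen. In the RefSeq gene order Psmb8, 3025 bases away, and then Tap1 and Psmb9 precede it, and H2-Ob, a class II gene, follows. Between 6G- BM-MDSC and MDSC (conv.) the differences were 0.06 for Psmb9, -0.02 for Tap1, 0.03 for Psmb8, -1.10 for Tap2 and -0.03 for H2-Ob, none past the test. For 6G- BM-MDSC over DCs the same genes had -0.56, -0.50, -0.63, -1.96 and -2.02, and for MDSC (conv.) over DCs they had -0.62, -0.48, -0.66, -0.86 and -2.00. Of these 5 genes, only Tap2 had a difference beyond 0.1 either way between both MDSC groups. Farther out on either side, H2-DMb1 had the next largest difference between both MDSC groups, -0.35 (adjusted p = 0.38), and H2-Ab1 and H2-Aa, also class II genes, had -0.19 and -0.20 (adjusted p = 0.53 and 0.58).

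**Figure D5:**
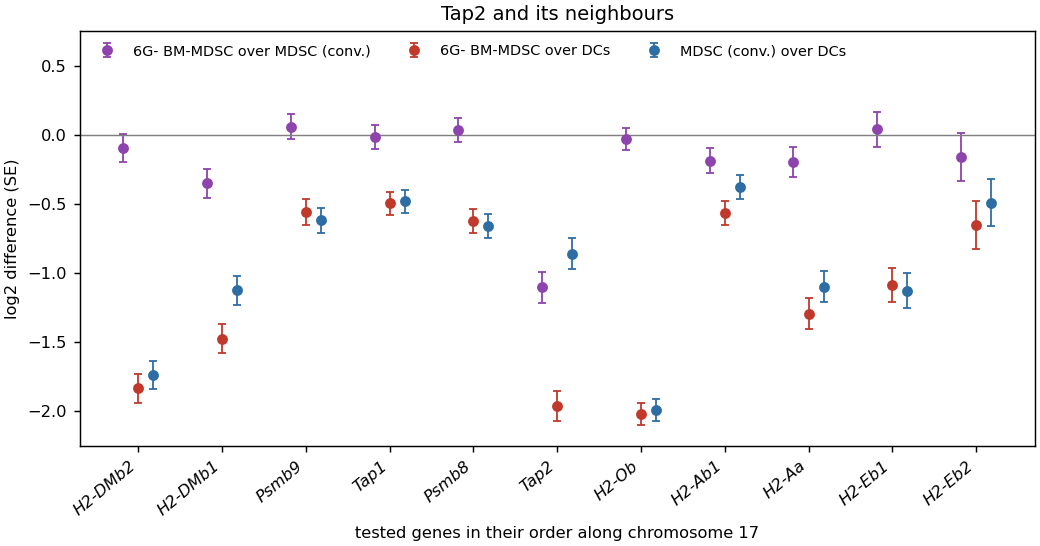
Log2 difference (vertical axis, whiskers are SE) of Tap2 and the 5 nearest tested genes to each side in an annotated order along chromosome 17, for the 3 comparisons. Tap2 stands at -1.10 for 6G- BM-MDSC over MDSC (conv.), where Psmb8 and H2-Ob beside it are at 0.03 and -0.03.

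Patterns like those of the 9 genes were sought by Euclidean distance between array values centred on each gene's mean, over 6 arrays and 14166 genes. The nearest gene was Cytip for H2-K1 (distance 0.067), Miga2 for H2-D1 (0.050), Stx4a for B2m (0.031), Ift22 for Tap1 (0.057), Hdac10 for Tapbp (0.065), Tbc1d5 for Tapbpl (0.044), Rtkn for Nlrc5 (0.070) and Ppp2r3c for Erap1 (0.038). For Tap2 the nearest were Grin1 (0.26), Aqp3 (0.35) and Map3k10 (0.37). This distance grows with the range of a gene's values, which was widest for Tap2, so the distances are not compared between the 9 genes.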

How the data were processed

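The authors hybridised Cy3-labelled RNA to 6 one-colour Agilent mouse arrays on 1 slide, scanned once. The deposited values are processed intensities on a linear scale from Agilent Feature Extraction (version 10.5.1.1 in the submitters' notes, 10.7.3.1 in the file headers), background-subtracted and not scaled between arrays. From these, marked spots were left out, spots of a probe averaged, and log2 of the deposited intensity taken relative to each array's 75th percentile. A probe was kept if well above background on both arrays of at least 1 group. The brightest probe stood for a gene, and limma 3.58.1 (R 4.3.3) was fitted to all 6 arrays with group as the only factor, giving 3 residual degrees of freedom. P-values were adjusted by Benjamini-Hochberg over all genes, threshold 0.05. The script was tested on simulated data. The number of arrays limits the precision.

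Probe coordinates are on mm9, and exon or UTR positions were not looked up, since the annotation used here is of another build. The members and lists were chosen with earlier results of these data known. Every member is named. From a pathway list up to 4 called genes with the largest difference are named, or the brightest 2 where none was called, and for each member the nearest genes in pattern. Alternatives were normexp background correction (offset 50), quantile normalization, other probe filters, the mean of a gene's probes, tests on probes, marked spots left in, the deposited rounded table, fits to the 4 arrays compared, a block for the replicate number, a prior that varies with intensity, the methods' t-test and leaving out each array. Same-numbered arrays deviated from their group means with correlations of 0.11, 0.042 and 0.12, so the numbers were not taken as pairs.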

Additional observations from a re-analysis of the deposited data

How the results depend on the processing

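Each of the 9 genes' differences was recomputed under 19 alternatives. Of 513 recomputed differences, 449 kept direction and side of the threshold, 48 were no longer past it, 7 newly passed and 9 changed sign. Many alternatives change only the test and leave a difference of these genes as it was. These are the probe filters, tests on probes, fits to the 4 arrays compared, the block, the prior, the t-test and leaving out an array of the group not compared. Direction was fixed in advance there, so keeping it is no sign of stability. Between 6G- BM-MDSC and MDSC (conv.) 1 of the 9 genes, Tap2, was called with normexp background correction, 1 with an intensity-dependent prior and 1 by the methods' t-test unadjusted, which also called 5 pathway genes. Over all genes the 3 calls became 9 with normexp, 64 with the intensity-dependent prior, 1 with no filter, 0 with the filter on all 6 arrays and 0 to 9 with 1 array left out. With no filter the 7171 genes called for 6G- BM-MDSC over DCs became 11950, and the 6382 for MDSC (conv.) over DCs 11616. After Benjamini-Hochberg the methods' t-test called 0 of the 9 genes and 0 pathway genes in either comparison with DCs, and 66 and 7 of all genes. Unadjusted, it called 28 pathway genes for 6G- BM-MDSC over DCs, and normexp 29. These counts, and those against DCs with an array left out, stand without the count of all genes under the same setting. A change particular to these genes therefore cannot be read from them. Leaving out 1 array gave 2 to 4 of the 9 genes and 6 to 15 pathway genes for 6G- BM-MDSC over DCs, 1 to 5 and 6 to 14 for MDSC (conv.) over DCs, and 0 of the 9 genes between both MDSC groups.

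The replicate number was also fitted as a block, although same-numbered arrays share only a number. With the block 4, 5 and 0 of the 9 genes were called for 6G- BM-MDSC over DCs, MDSC (conv.) over DCs and 6G- BM-MDSC over MDSC (conv.), and 19, 17 and 0 pathway genes. It ended the calls of Tapbpl in 6G- BM-MDSC and of B2m in MDSC (conv.) (adjusted p = 0.071) and changed no other call among the 9 genes.

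Sign changes concerned differences that had not passed the test, and their cause was not tested. For 6G- BM-MDSC over MDSC (conv.), leaving out 1 array gave -0.0016 (without 6G- BM-MDSC replicate 1) to 0.16 for H2-D1, -0.018 (without the same array) to 0.12 for Tapbpl and -0.070 to 0.038 (without 6G- BM-MDSC replicate 2) for Tap1, which was also 0.017 without MDSC (conv.) replicate 1. The mean of a gene's probes gave 0.11 for Tap1 and 0.14 for Erap1, and normexp 0.0014 for Erap1. For 6G- BM-MDSC over DCs, Tapbp was at 0.0041 as the mean of its probes, and at -0.19 to 0.0077 (without DCs replicate 1) with 1 array left out. With 1 array left in a group, that array is assumed to vary like the others.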
